A study of Mus musculus with 12 samples.

Results

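The 9 genes described here are recurrently altered in human oral squamous cell carcinoma: Ccnd1, Myc, Egfr, Cdkn2a, Pik3ca, Hras1, Fat1, Casp8 and Nsd1. They were taken by exact match to the gene column of the deposited tables, and all 9 were found, of 23235 gene rows in all. Hras1 is the symbol that the tables give to the mouse Hras gene. Transcripts were sequenced from the tongue of C57BL/6 mice aged 31 weeks, 12 samples in 4 treatment groups of 3. The labels name the groups 4-NQO/EtOH, 4-NQO/Untr., V.C./EtOH and V.C./Untr., that is, 4-NQO or the control written V.C., each either combined with ethanol or left without it. 4-NQO is 4-nitroquinoline 1-oxide, a DNA-damaging carcinogen that is used to induce tongue and oral tumours in mice. The labels do not state how the carcinogen or the ethanol was given, what part of the tongue was taken, or whether any sample held a tumour.

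The tables used here hold 1 level per gene and group, which the authors made from the samples of that group, and they number the groups 1 to 4. No source used here links a number to a treatment, so each comparison below is between numbered groups and no treatment is named for it. Levels are in FPKM, the number of sequenced fragments of a gene divided by its transcript length and by the size of the library. Values per sample were not used here and the read depth is unknown, so the spread among samples can be read only through the authors' own statistics. By those statistics the standard error (SE) of log2 FPKM had medians over genes of 0.326, 0.486, 0.201 and 0.136 for groups 4, 3, 2 and 1. A gene was called higher or lower where the authors marked it as tested, their q (a p-value adjusted for multiple testing) was under 0.05 and at least 1 of the groups compared reached 1 FPKM. Differences are given as log2(FPKM + 1) of the first-named group minus the second, ± SE, a scale that understates changes of low genes. Folds are ratios of FPKM, with their 95% interval. The 6 comparisons share groups, so they are not independent of each other.

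In head and neck epithelium these genes fall into a few linked circuits. Cdkn2a encodes p16INK4a, which blocks the CDK4 and CDK6 partners of cyclin D1 (Ccnd1), and p19ARF, which stabilises p53, so the locus restrains the cell cycle through both the retinoblastoma protein and p53. Egfr, a receptor tyrosine kinase of the epidermal growth factor family, signals through Hras1, a small GTPase, and through Pik3ca, the catalytic subunit p110α of phosphoinositide 3-kinase, and Myc is a transcription factor for growth and proliferation genes. Fat1 is a large protocadherin that restrains Wnt and YAP signalling, Casp8 is the initiator caspase of death receptors, and Nsd1 is a histone methyltransferase that acts on lysine 36 of histone H3.

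All 9 genes were detected in every group, over a wide range of levels. Hras1 was the highest of the 9 in each group, at 41.9, 48.6, 39.1 and 42.8 FPKM in groups 4, 3, 2 and 1, above 88.1%, 89.2%, 85.7% and 86.6% of the genes at 1 FPKM or more there. Ccnd1 came next in each group, followed by Myc. Below these, Nsd1, Casp8, Egfr, Pik3ca and Fat1 lay between 2.05 and 6.65 FPKM, and neighbours in that order mostly had overlapping intervals. The order of these lower genes differed between groups, and Pik3ca was the seventh of the 9 in group 4 and the fourth in group 1. Cdkn2a was the last of the 9 in groups 2 and 1, the eighth in group 4 and the fourth in group 3.

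**Figure D1:**
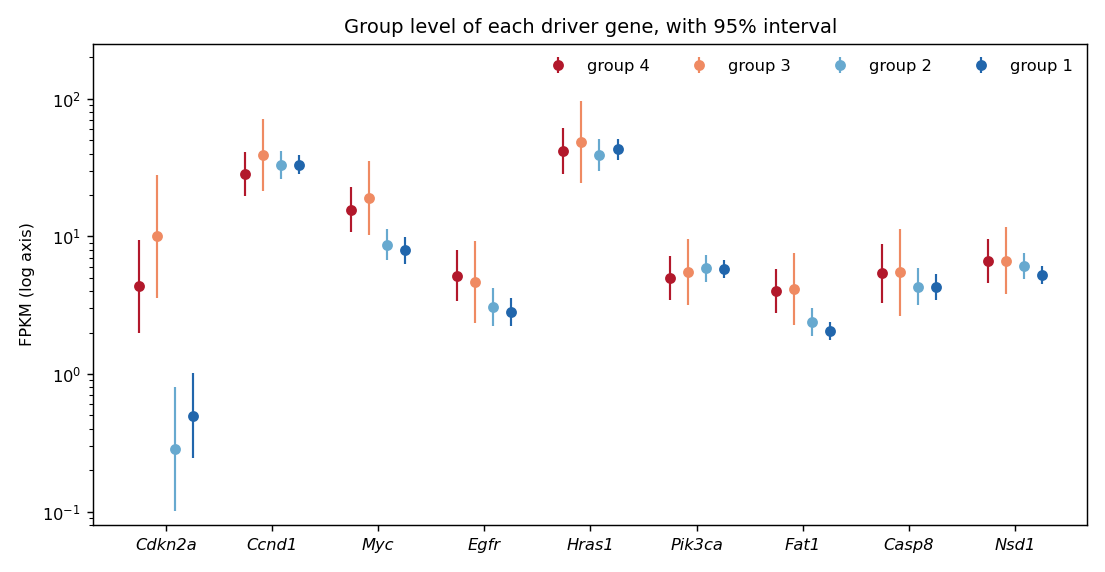
FPKM of the 9 genes in groups 4, 3, 2 and 1 on a log axis; points are the authors' level of a group and lines the 95% interval from the authors' statistics. Cdkn2a stands at 4.34 and 10.01 FPKM in groups 4 and 3, against 0.284 and 0.497 in groups 2 and 1, while the intervals of Ccnd1, Egfr, Hras1, Pik3ca, Casp8 and Nsd1 overlap between all groups.

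Cell-type markers were set beside these levels because tongue is a mixture of epithelium, muscle, connective tissue, fat and salivary gland, and in bulk tissue fewer cells of a type and less RNA per cell cannot be told apart. The tissue label was borne out by its markers: the skeletal muscle troponin genes Tnnc2, Tnnt3 and Tnni2 were nowhere below 2613 FPKM, and the basal keratin Krt5 was measured at 1100.3, 1220 and 473 FPKM in groups 4, 3 and 2, against 342 in group 1. Summed over the 13 keratinocyte markers with a usable level, none of them at 0, groups 4, 3, 2 and 1 had 3350, 3822, 1610 and 1437 FPKM. Of the 14 keratinocyte markers tested, 7 were higher in group 4 than in group 1, where 5% of all genes tested were. In group 3 against group 1, 2 of 14 were higher, where 2.52% of all genes tested were. Their median log2 difference was 1.26 in group 4 and 1.38 in group 3, and the errors of group 3 were larger. The same groups had 18422, 15772, 32826 and 35993 FPKM summed over 12 skeletal muscle markers. Summed fibroblast markers were 393, 387, 754 and 641 FPKM in groups 4, 3, 2 and 1, endothelial markers 80.6, 63.4, 125 and 109, adipocyte markers 399.7, 329, 729 and 757, and macrophage markers 250.5, 214, 312 and 299. Neutrophil markers summed to 29.9, 9.58, 2.20 and 2.01 FPKM in groups 4, 3, 2 and 1, T cell markers to 10.1, 10.8, 6.41 and 4.85, and salivary secretory markers to 432, 3438, 2449 and 4218. The summed keratinocyte markers thus had 2.33 times the level of group 1 in group 4 and 2.66 times in group 3, and their part in the results below was not tested.

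Few of the 9 genes passed the test, and those that did were higher in groups 4 or 3 than in groups 2 or 1. In group 4 against group 1, Cdkn2a and Fat1 were higher, 2 of 9, where 5% of the 13111 genes tested were higher. Only Cdkn2a was higher in group 4 against group 2, where 3.31% of 13124 genes were, in group 3 against group 1, where 2.52% of 13114 genes were, and in group 3 against group 2, where 1.61% of 13127 genes were. None of the 9 was called in group 4 against group 3, where 0.294% of 12918 genes changed either way. None was called in group 2 against group 1 either, where 0.899% of 12799 genes changed and 8 of the 9 reached the minimum of 1 FPKM. In those 2 comparisons the authors' unadjusted p was under 0.05 for 0 of the 9 as well. No member was lower in any comparison, where 3.91% of all genes were lower in group 4 against group 1, 2.25% in group 4 against group 2, 0.282% in group 3 against group 1 and 0.229% in group 3 against group 2. The median log2 difference of the 9 was 0.28 in group 4 against group 1 and 0.30 in group 3 against group 1, beside -0.08 and -0.04 over all genes tested. The median log2 ratio of genes with at least 5 FPKM in both groups was -0.16 in group 4 against group 1 and -0.14 against group 2. In group 3 it was -0.098 against group 1 and -0.064 against group 2. What set these medians below 0 was not tested. By the authors' q, 655 genes were higher and 512 lower in group 4 against group 1, and 434 and 295 against group 2. Adjusting p anew by Benjamini-Hochberg within the comparison, without centring, gave 866 and 842 against group 1, and 511 and 427 against group 2. Centring on the median, with p computed and adjusted anew, gave 1107 and 484 against group 1, and 633 and 233 against group 2.

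**Figure D2:**
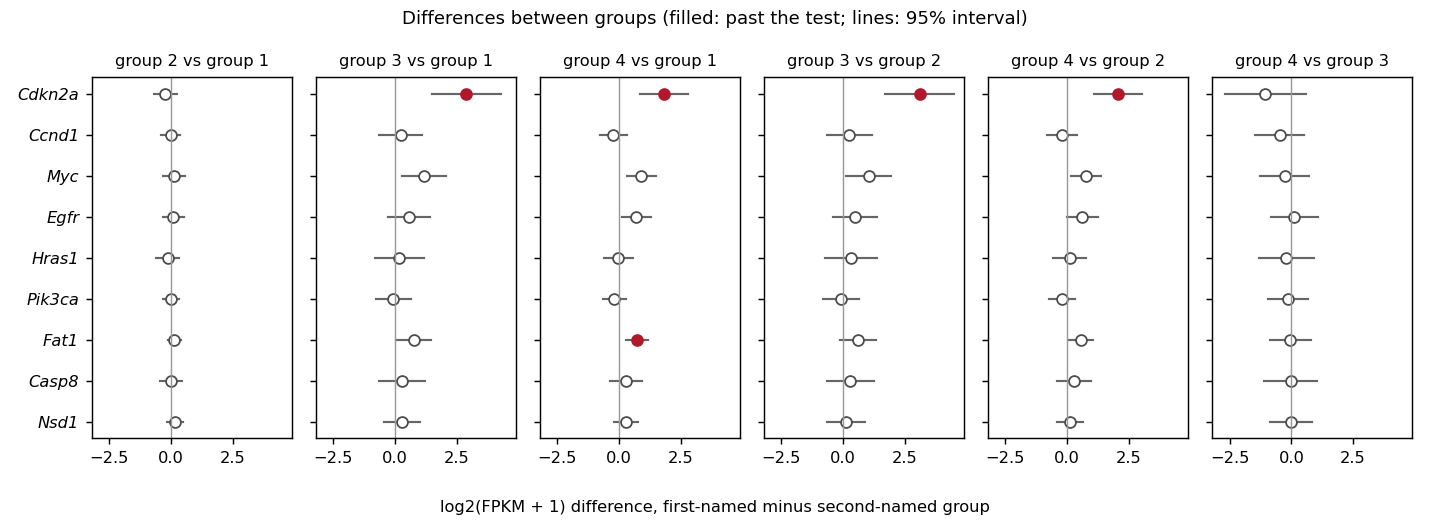
Differences in log2(FPKM + 1) of the 9 genes in the 6 comparisons, first-named minus second-named group, with 95% intervals; filled points passed the test. Cdkn2a is filled in the 4 comparisons of groups 3 or 4 with groups 1 or 2, and Fat1 in group 4 against group 1 alone.

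Cdkn2a had the largest difference of the 9 in each of these 4 comparisons. The gene lies at chr4:88920377-88940523 of mm9, and its row sums both RefSeq transcripts, so p16INK4a and p19ARF transcripts, which share exons, cannot be told apart. Its level was 4.34 FPKM (95% interval 2.00 to 9.41) in group 4 and 10.01 (3.58 to 28.0) in group 3. Against these, it was 0.284 (0.101 to 0.799) in group 2 and 0.497 (0.244 to 1.01) in group 1. The intervals of groups 4 and 3 overlapped each other, those of groups 2 and 1 overlapped each other, and neither of the first pair overlapped either of the second. In group 4 Cdkn2a exceeded group 1 by 8.73-fold (3.05 to 24.97), a log2 difference of 1.83 ± 0.49, with q = 0.00399 in the authors' deposited table. Group 4 exceeded group 2 by 15.3-fold (4.20 to 55.6), a log2 difference of 2.06 ± 0.49, with q = 0.00287 in the authors' deposited table. In group 3 the excess over group 1 was 20.1-fold (5.77 to 70.3), a log2 difference of 2.88 ± 0.71, with q = 0.000315 in the authors' deposited table. Group 3 exceeded group 2 by 35.3-fold (8.21 to 152), a log2 difference of 3.10 ± 0.71, with q = 0.000223 in the authors' deposited table.

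Ranked by log2 difference, Cdkn2a was number 213 of 13111 genes tested in group 4 against group 1, 150 of 13124 in group 4 against group 2, 105 of 13114 in group 3 against group 1 and 66 of 13127 in group 3 against group 2. Its level in group 4 was 0.433-fold that of group 3, with an interval from 0.120 to 1.57 that holds both equality and a several-fold difference (q = 0.857 in the authors' deposited table). Groups 2 and 1 were both under 1 FPKM, below the minimum set for a call. Their ratio was 0.571 (0.163 to 2.00), with p = 0.382 and q = 0.99999 in the authors' deposited table. Both calls of group 4 ended under Bonferroni adjustment and under a minimum of 5 FPKM, which its level of 4.34 FPKM does not reach. The folds of Cdkn2a stood beside 2.33-fold and 2.66-fold for the summed keratinocyte markers in groups 4 and 3 against group 1, and 14.9-fold and 4.76-fold for the summed neutrophil markers. Retnlg made up much of the neutrophil sum of group 4, at 18.6 FPKM in group 4 and 1.77 in group 3, against 0.639 in group 2 and 0.191 in group 1.

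The genes beside Cdkn2a on the chromosome were measured separately, and no other row of the tables overlaps it. Cdkn2b, which encodes the related CDK4 and CDK6 inhibitor p15INK4b and lies within 100 kb, had 6.46 FPKM in group 4 and 6.18 in group 3, against 3.44 in group 2 and 4.10 in group 1. Its log2 difference was 0.55 ± 0.36 in group 4 against group 1 and 0.49 ± 0.48 in group 3 against group 1, and it was called in none of the 6 comparisons. Mtap, which encodes methylthioadenosine phosphorylase and is often lost together with CDKN2A in human tumours, had 6.79, 10.2, 7.31 and 7.09 FPKM in groups 4, 3, 2 and 1 and was not called either.

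Cdkn2a has 2 starts, and the row used here does not separate them. The 250 bases before each start are shown because Cdkn2a is the member whose level changed most, taken from the RefSeq promoter table (GRCm38.p6, minus strand, 5′ to 3′); these coordinates are not those of mm9 above. In the first, at chr4:89294620-89294869 and upstream of the p19ARF start, GC content was 78.4% with 40 CpG dinucleotides. In the second, at chr4:89282193-89282442 and upstream of the p16INK4a start, GC content was 60% with 7 CpG dinucleotides, beside a median GC content of 52.4% over 32851 windows. Capitals mark a match to the letters searched for the E2F motif.
Cdkn2a, p19ARF start: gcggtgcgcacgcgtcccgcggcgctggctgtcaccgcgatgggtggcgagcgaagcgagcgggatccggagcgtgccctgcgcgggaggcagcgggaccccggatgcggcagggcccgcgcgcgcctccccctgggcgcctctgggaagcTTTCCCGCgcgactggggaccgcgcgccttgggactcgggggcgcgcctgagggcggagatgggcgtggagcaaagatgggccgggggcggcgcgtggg
Cdkn2a, p16INK4a start: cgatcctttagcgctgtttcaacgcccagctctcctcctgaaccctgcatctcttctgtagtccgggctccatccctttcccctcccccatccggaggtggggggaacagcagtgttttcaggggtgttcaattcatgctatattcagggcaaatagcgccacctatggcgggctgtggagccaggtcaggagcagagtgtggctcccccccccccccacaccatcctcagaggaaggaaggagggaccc
The letters searched were TTTCCCGC, TTTCGCGC, TTTGCCGC and TTTGGCGC on both strands. The p19ARF window held 1 match, TTTCCCGC, 99 bases before the start, and the p16INK4a window held none; 1.86% of all windows of this length held a match. Neither window held the E-box CACGTG, found in 6.02% of windows, or the TEAD motif GGAATG, found in 12.6%.

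Ccnd1, whose product cyclin D1 drives entry into the cell cycle with CDK4 and CDK6, differed little between groups. The gene lies at chr7:152115836-152125830 of mm9 and had 28.2 FPKM in group 4 and 39.2 in group 3, against 33.0 in group 2 and 33.2 in group 1. Group 4 stood at 0.850-fold group 1 (0.569 to 1.27) and group 3 at 1.18-fold (0.633 to 2.20), so the intervals leave room for a change of under 2-fold in group 4 and of somewhat over 2-fold in group 3. Its kinase partner Cdk4 had 54.1, 61.1, 48.3 and 50.8 FPKM in groups 4, 3, 2 and 1, and Cdk6 was under 1 FPKM in every group.

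The genes around the 9 were read from lists of their pathways, whose counts in group 4 against group 1 stand beside 5% higher and 3.91% lower among all genes tested, and in group 3 against group 1 beside 2.52% and 0.282%. The lists are short, at 4 to 25 genes tested, so a single gene called moves a list's share by several percent, and no list was tested as a whole. Of the other genes of the D-type cyclin and retinoblastoma branch, 2 of 16 tested were higher and 0 lower in group 4 against group 1, with a median log2 difference of 0.16. One of these was Ccne1, which encodes cyclin E1, the cyclin of the G1 to S transition and a target of E2F factors, at 3.64 FPKM in group 4 against 0.911 in group 1. That is a log2 difference of 1.28 ± 0.34, with q = 0.00295 in the authors' deposited table. The other was the E2F family member E2f2, at 2.23 FPKM in group 4 against 0.860 in group 1 (0.80 ± 0.27; q = 0.0367 in the authors' deposited table). In group 3 against group 1, Ccne1 alone was higher, 1 of 17, at 4.91 FPKM against 0.911 (1.63 ± 0.49; q = 0.00839 in the authors' deposited table). The genes beside human CCND1 in its chromosome 11q13 amplicon that could be tested in mouse, 4 in all, were not called in any comparison, and their median log2 difference was 0.13 in group 4 and 0.23 in group 3 against group 1.

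Myc had 1.79 to 2.40 times the level in groups 4 and 3 that it had in groups 2 and 1, but passed no comparison of a pair of groups. The gene lies at chr15:61816896-61821916 of mm9. Its level was 15.6 FPKM (10.8 to 22.8) in group 4 and 19.0 (10.2 to 35.3) in group 3, against 8.73 (6.73 to 11.3) in group 2 and 7.92 (6.29 to 9.97) in group 1. Both intervals of groups 4 and 3 lay above that of group 1 and overlapped that of group 2. In group 4 against group 1 the log2 difference was 0.90 ± 0.30, with q = 0.0683 in the authors' deposited table, and 0.78 ± 0.31 against group 2, with q = 0.195. In group 3 against group 1 it was 1.17 ± 0.46 with q = 0.168 in the authors' deposited table, and 1.04 ± 0.47 against group 2 with q = 0.288. The call in group 4 against group 1 depended on the adjustment. Myc passed when p was adjusted by Benjamini-Hochberg within that comparison without centring. It also passed when centred on the median, where p was adjusted anew as well, with a centred log2 difference of 1.06.

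Around Myc, the network of dimer partners and antagonists had 1 of 9 tested genes higher in group 4 against group 1, the MYC antagonist Mxd1, which marks differentiating epithelium. Mxd1 had 10.7 FPKM in group 4 against 5.03 in group 1, a log2 difference of 0.96 ± 0.27 with q = 0.0166 in the authors' deposited table. The obligate partner Max had 29.1, 32.0, 24.5 and 26.3 FPKM in groups 4, 3, 2 and 1 and was not called. Of 14 MYC-induced genes, which encode nucleolar and biosynthetic proteins such as Ncl, Odc1 and Srm, none was called in any pair of groups. Their median log2 difference was 0.42 in group 4 and 0.58 in group 3 against group 1, above the -0.08 and -0.04 of all genes tested, and members lay on both sides of 0, with Srm at -0.34 and Ncl at 0.60 in group 4.

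Egfr, at chr11:16652206-16813910 of mm9, had 5.19 FPKM in group 4 and 4.67 in group 3, against 3.07 in group 2 and 2.81 in group 1. Group 4 exceeded group 1 by 1.85-fold (1.13 to 3.01), a log2 difference of 0.70 ± 0.29. It did not pass (q = 0.214 in the authors' deposited table) except when centred on the median, with a centred log2 difference of 0.86. In group 3 against group 1 the ratio was 1.66-fold (0.807 to 3.41), with q = 0.798 in the authors' deposited table. Erbb2, the preferred dimer partner of EGFR, had 14.2 and 15.1 FPKM in groups 4 and 3, against 8.31 and 8.02 in groups 2 and 1, and was not called in any pair of groups.

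Hras1, at chr7:148375833-148379903 of mm9, is the gene that is often mutated in chemically induced squamous tumours of mouse skin, and transcript levels do not show mutations. Its level in group 4 was 0.978-fold that of group 1 (0.644 to 1.49) and its level in group 3 was 1.13-fold (0.560 to 2.299). The sign of the group 4 log2 difference flipped with the scaling, from -0.03 to 0.13 when that difference was centred. Of 14 other genes of the RAS to ERK branch, from adaptors to MAP kinases, none was called in any pair of groups, and the median log2 difference was 0.15 in group 4 and 0.21 in group 3 against group 1. Among the genes that ERK signalling induces, 1 of 12 was higher in group 4 against group 1, the immediate early gene Egr1, at 10.05 FPKM in group 4 against 4.31 in group 1 (1.06 ± 0.30; q = 0.0130 in the authors' deposited table).

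Pik3ca had nearly the same level in all groups. The gene lies at chr3:32335073-32367408 of mm9 and had 4.97 FPKM in group 4 and 5.50 in group 3, against 5.86 in group 2 and 5.82 in group 1. Its ratio was 0.854 (0.575 to 1.27) in group 4 and 0.945 (0.530 to 1.68) in group 3 against group 1. The small log2 difference of group 3 flipped from -0.07 to 0.03 when that difference was centred. Of 15 other genes of the PI3K to AKT branch, none was called in any pair of groups, with medians of -0.11 in group 4 and -0.09 in group 3 against group 1. Among the genes that lie beside PIK3CA in the human 3q26 amplicon, 1 of 8 tested was higher, Ect2, which encodes a guanine nucleotide exchange factor needed for cytokinesis. Ect2 had 3.08 FPKM in group 4 and 3.13 in group 3, against 0.942 in group 2 and 0.543 in group 1. The authors' deposited table gave q = 1.49e-05 in group 4 against group 1 (1.40 ± 0.31), q = 0.0277 in group 4 against group 2 (1.07 ± 0.33) and q = 0.0304 in group 3 against group 1 (1.42 ± 0.54).

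Fat1 was the second member past the test, in group 4 against group 1 alone. It lies at chr8:46035562-46137611 of mm9 and was the lowest of the 9 in groups 4 and 3. Its level was 4.008 FPKM (2.78 to 5.77) in group 4 and 4.13 (2.26 to 7.53) in group 3, against 2.37 (1.88 to 2.99) in group 2 and 2.05 (1.76 to 2.38) in group 1. Only the intervals of groups 4 and 1 did not overlap. Group 4 exceeded group 1 by 1.96-fold (1.32 to 2.91), a log2 difference of 0.72 ± 0.23, with q = 0.0332 in the authors' deposited table. The difference was as large in group 3 against group 1, 0.75 ± 0.36, where the error was larger and q was 0.315 in the authors' deposited table. Against group 2 it was 0.57 ± 0.25 in group 4, with q = 0.243 in the authors' deposited table, and 0.61 ± 0.38 in group 3, with q = 0.602. The call of Fat1 ended at a threshold of 0.01, at a required fold of 2, under a minimum of 5 FPKM, under Bonferroni adjustment and with 1 variance per gene for all groups. Its 1.96-fold excess in group 4 stood beside a 2.33-fold excess of the summed keratinocyte markers.

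The paralogue Fat2, a protocadherin of epidermis, had 3.03 FPKM in group 4 and 3.33 in group 3, against 1.40 in group 2 and 1.25 in group 1. It was higher in group 4 than in group 1 (0.84 ± 0.22; q = 0.00303 in the authors' deposited table) and than in group 2 (0.75 ± 0.24; q = 0.0406). Fat4 was under 0.5 FPKM and Fat3 under 0.1 FPKM in every group. Of the 17 genes of the FAT and Hippo branch tested in group 4 against group 1, Fat2 was the 1 called, and the median log2 difference was 0.03. The YAP effector Yap1 had 22.4, 24.8, 24.96 and 22.1 FPKM in groups 4, 3, 2 and 1. Ctgf encodes a secreted matricellular protein induced by YAP and by TGF-β. Groups 4 and 3 had 29.7 and 24.8 FPKM, against 81.0 FPKM in group 2, which in turn exceeded the 39.0 FPKM of group 1. Ctgf was lower in group 4 than in group 2 (-1.42 ± 0.33; q = 0.0018 in the authors' deposited table), lower in group 3 than in group 2 (-1.67 ± 0.45; q = 0.0134) and higher in group 2 than in group 1 (1.04 ± 0.20; q = 6.15e-05).

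Casp8, at chr1:58852218-58904347 of mm9, had 5.40 FPKM in group 4 and 5.49 in group 3, against 4.30 in group 2 and 4.28 in group 1. Its ratio to group 1 was 1.26 (0.738 to 2.15) in group 4 and 1.28 (0.6001 to 2.74) in group 3, and neither passed. Of 12 other genes of the death receptor branch tested in group 4 against group 1, 2 were higher. Ripk3, a kinase of necroptosis, had 3.89 FPKM in group 4 against 1.28 in group 1 (1.10 ± 0.36; q = 0.0358 in the authors' deposited table). Mlkl, which permeabilises the membrane once RIPK3 has phosphorylated it, had 2.26 FPKM in group 4 against 0.638 in group 1 (0.99 ± 0.34; q = 0.0340 in the authors' deposited table). In group 3 they had 3.19 and 2.25 FPKM and did not pass against group 1. Fadd, the adaptor that recruits caspase-8, had 3.61, 3.83, 3.74 and 3.95 FPKM in groups 4, 3, 2 and 1. The median of the branch was 0.35 in group 4 and 0.46 in group 3 against group 1.

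Nsd1, at chr13:55311143-55419686 of mm9, had 6.62 FPKM in group 4 and 6.65 in group 3, against 6.09 in group 2 and 5.26 in group 1, and was not called in any comparison. Its ratio to group 1 was 1.26 (0.850 to 1.86) in group 4 and 1.26 (0.706 to 2.26) in group 3. The paralogues Whsc1 (Nsd2) and Whsc1l1 (Nsd3) had 2.66 and 6.21 FPKM in group 4 against 2.11 and 5.92 in group 1. Of the other genes of the histone and DNA methylation list, none was called in any pair of groups, with 12 tested in group 4 against group 1, and their median log2 difference was 0.27.

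**Figure D3:**
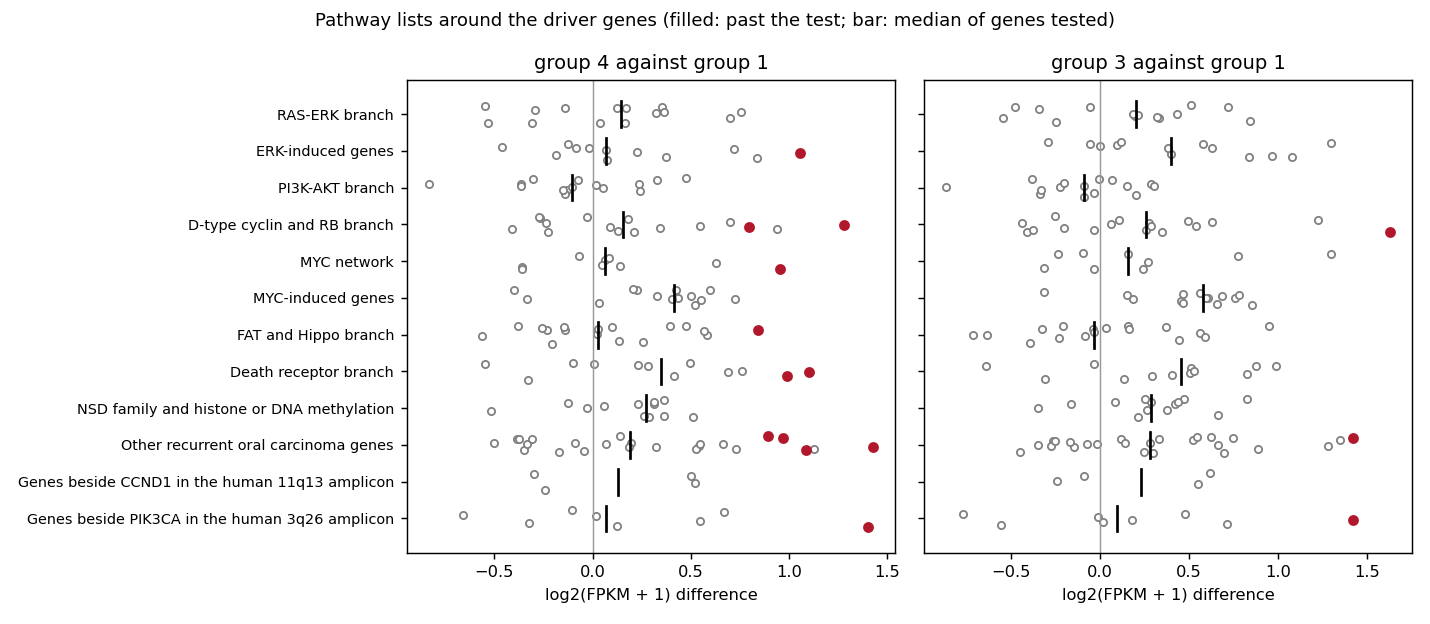
Log2(FPKM + 1) differences of the genes tested in each pathway list around the 9 genes, in group 4 (left) and group 3 (right) against group 1; filled points passed the test and bars are list medians. The medians run from -0.11 to 0.42 in group 4 and from -0.09 to 0.58 in group 3, and the filled points are the genes named in the text.

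Other genes recurrently mutated or amplified in oral carcinoma were read in the same way. In group 4 against group 1, 4 of 24 tested were higher and 0 lower, with a median log2 difference of 0.19. Epha2, an ephrin receptor kinase, had 10.8 FPKM in group 4 and 10.7 in group 3, against 3.72 in group 2 and 3.38 in group 1. It was higher in group 4 than in group 1 (1.43 ± 0.29; q = 3.23e-05 in the authors' deposited table), in group 4 than in group 2 (1.32 ± 0.31; q = 0.00127) and in group 3 than in group 1 (1.42 ± 0.43; q = 0.0214). Zfp750, an epidermal differentiation factor, had 24.5 FPKM in group 4 against 11.01 in group 1 (1.09 ± 0.34; q = 0.0392 in the authors' deposited table). Jub, the LIM protein Ajuba, had 17.8 FPKM in group 4 against 8.57 in group 1 (0.97 ± 0.28; q = 0.0214 in the authors' deposited table) and against 7.92 in group 2 (1.07 ± 0.31; q = 0.0202). Notch1, a receptor that promotes squamous differentiation, had 7.46 FPKM in group 4 against 3.56 in group 1 (0.89 ± 0.26; q = 0.0155 in the authors' deposited table). These 4 genes are all active in stratified epithelium, and the summed keratinocyte markers had 2.33 times the level in group 4 that they had in group 1, whose part in these calls was not tested.

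**Figure D4:**
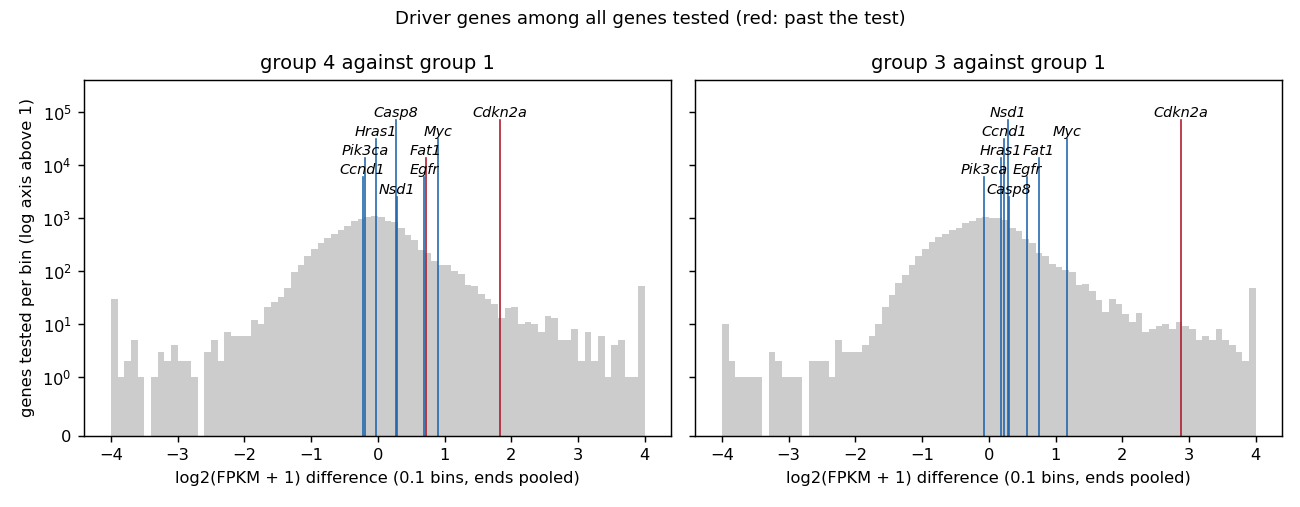
Numbers of tested genes by log2(FPKM + 1) difference in 0.1 bins (log axis), in group 4 (left) and group 3 (right) against group 1, with a line at each of the 9 genes, red where it passed the test. Cdkn2a lies far out in the right tail, at 1.83 and 2.88, while Ccnd1, Hras1, Pik3ca, Casp8 and Nsd1 lie within 0.30 of 0.

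The levels of all 4 groups were then combined in contrasts, in the 3 ways of setting a pair of groups against the other pair. Each was a difference of mean log2(FPKM + 1) levels, with an SE from the authors' statistics. A normal-deviate test was adjusted by Benjamini-Hochberg over 13063 genes. With groups 3 and 4 against groups 1 and 2, 3 of the 9 were higher and 0 lower, where 6.46% of genes were higher and 8.67% lower. Cdkn2a had a log2 difference of 2.47 ± 0.43 (adjusted p = 1.08e-06), Myc one of 0.97 ± 0.28 (adjusted p = 0.00651) and Fat1 one of 0.66 ± 0.22 (adjusted p = 0.0234), so Myc passed here and in no pair of groups. The call of Fat1 in this contrast ended at a threshold of 0.01 and under a minimum of 5 FPKM. Egfr was next at 0.59 ± 0.27 and did not pass (adjusted p = 0.125). The other 5 lay between -0.14, for Pik3ca, and 0.28, for Casp8. With groups 2 and 4 against groups 1 and 3, 0 of the 9 were called where 0.145% of genes were, and with groups 1 and 4 against groups 2 and 3, 0 of the 9 where 0.0995% were; none had an unadjusted p under 0.05 in either. Cdkn2a had the lowest value in both, -0.63 ± 0.43 and -0.41 ± 0.43. In the same contrast of groups 3 and 4 with groups 1 and 2, pathway genes called are read against 6.46% higher and 8.67% lower among all genes. The death receptor branch had 3 of 12 higher (Ripk3, Mlkl and the TNF receptor Tnfrsf1a) and the other oral carcinoma genes 5 of 23 (Epha2, Jub, Notch1, Notch2 and Zfp750). Of the PI3K to AKT branch 1 of 15 was lower, the kinase gene Akt2, at 57.2 and 55.9 FPKM in groups 4 and 3 against 105.5 and 102.6 in groups 2 and 1, and of the RAS to ERK branch 0 of 14 was called. Of the ERK-induced genes 2 of 13 were higher, Etv4 and Ier3, and Egr1 was not called. The FAT and Hippo branch had 1 of 17 higher (Fat2) and 2 lower (Ctgf and Tead1), the D-type cyclin and retinoblastoma branch 2 of 17 higher (Ccne1 and Rbl1), the MYC network 1 of 9 (Mxd1) and the 3q26 genes 1 of 8 (Ect2). None was called of the 12 histone and DNA methylation genes or the 4 genes of 11q13. MYC-induced genes had 1 of 14 higher, the nucleolar helicase gene Ddx21, with a median log2 difference of 0.50 beside -0.07 over all genes tested. These contrasts use the same group levels as the comparisons above and add no samples.

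Genes with a like pattern over the 4 groups were listed for the 3 members called, among up to 8969 genes with at least 5 FPKM in 1 or more groups, by the root mean square difference of centred log2(FPKM + 1) levels. Nearest to Cdkn2a were Gm11564 (0.114), Sprr2a2 (0.120) and Krtap4-7 (0.123). Sprr2a2, a gene of the small proline-rich family of cornified cells, had 62.3 FPKM in group 4 and 121 in group 3, against 16.8 in group 2 and 17.4 in group 1. Gm11564 had 2.65, 6.86, 0.0651 and 0.0245 FPKM in groups 4, 3, 2 and 1, and Krtap4-7 had 2.86, 7.46, 0.164 and 0.141. Genes near in log2(FPKM + 1) can differ in fold, because this scale understates changes of low genes such as Cdkn2a. Nearest to Myc were Gnai1 (0.0123), Bpifa5 (0.0148) and Fscn1 (0.0160), and nearest to Fat1 were Cenpt, Kdm5b and 4933407C03Rik (0.0130 each). The levels were not scaled to the size of a gene's change, so distances to a gene that changed more, such as Cdkn2a, run larger, and with 4 groups they are a description only.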

How the data were processed

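Poly-A RNA of 12 tongue samples was sequenced on an Illumina HiSeq2000. The authors' deposited tables hold 1 FPKM level per gene and group, made with Cufflinks against mm9 per the series design text. GSNAP 2011.11.17 and edgeR appear in the submitters' processing notes, but their role, the annotation and the filters are not given in the sources used here. A deposited score, the test statistic of a gene in a table per the file headers, and the p-value and q-value were taken as the authors deposited them. The labels number 3 samples per group and do not say that they are separate animals, so p-values may measure technical spread. The tables hold no values per sample (0 such columns were left unused); each group's level was read from 1 of the tables that hold it.

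Dividing a log2 ratio by the deposited statistic gave its SE, which the delta method put on the log2(FPKM + 1) scale. For 14588 genes the 6 squared SEs were solved for a variance per group. The solution missed a squared SE by at most 0.0407 of the largest of that gene's 6, so a small squared SE can be missed by a larger part of its own size. Contrasts of pairs of groups used these variances in a 2-sided normal-deviate test. On simulated data for groups 3 and 4 against groups 1 and 2, with 200 of 13063 genes changed, the test recovered 19.5% of genes changed by 1 log2 unit, 87.5% at 2 units, and 98.5% at both 3 and 4 units. Of the unchanged genes it called 0.0855% at 1 unit, 0.101% at 2 units and 0.109% at both 3 and 4 units. Unchanged genes far outnumbered the changed ones, so at 1 unit such calls were not negligible beside the genes recovered. A further 23 genes exceeded the authors' read limit in at least 1 comparison and were left out there.

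The 9 genes and the 12 pathway and 9 marker lists (276 genes, 273 found by symbol) were chosen with earlier results of these data known. Named genes were the 9, up to 4 genes per pathway list past the test with the largest difference, the 3 highest genes per marker list, and the 3 genes most like each member called. Genes named for their role (Cdk4, Cdk6, Cdkn2b, Max, Ncl, Odc1, Srm, Erbb2, Fat3, Fat4, Yap1, Fadd, Whsc1, Whsc1l1), Mtap and the genes called only in a contrast (Akt2, Ddx21, Etv4, Ier3, Notch2, Rbl1, Tead1, Tnfrsf1a) fall outside this rule and were chosen after their values were seen. Promoter windows came from the RefSeq table, which matched 6 of the 9. The settings varied were the q threshold (0.01), a required fold (2), the FPKM minimum (5, or none), Benjamini-Hochberg or Bonferroni adjustment within a comparison, 1 variance per gene, centring on the median and pseudocounts of 0 and 0.1. Python 3.11.15, numpy 2.4.6, pandas 2.3.3, scipy 1.17.1 and matplotlib 3.10.9 were used.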

Additional observations from a re-analysis of the deposited data

How the results depend on the processing

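The direction and call of Cdkn2a in group 3 against groups 1 and 2 did not change under any alternative run. In group 4 against group 1 the 2 genes called became 1 (Cdkn2a) at a threshold of 0.01 and at a fold of at least 2. The same held with 1 variance per gene. None was called there under Bonferroni adjustment or at 5 FPKM. With Benjamini-Hochberg adjustment within that comparison 3 were called (Cdkn2a, Fat1 and Myc), and when centred on the median 4, with Egfr added. In group 4 against group 2 the 1 gene called became 0 under Bonferroni adjustment and at 5 FPKM. Centring reversed the sign of 5 differences: Pik3ca in group 3 against group 1 (0.0277), Hras1 in group 4 against group 1 (0.13), and Fat1 (0.0163), Casp8 (0.0310) and Nsd1 (0.0463) in group 4 against group 3; none of these 5 was called before or after. Of the settings varied for the differences, only centring could reverse a sign. Another pseudocount keeps the sign of a difference, and the threshold of 0.01 leaves its value unchanged. The other 58 counts and 208 differences kept their direction and side of the threshold, or for counts stayed within 1.5 times. Such a count can still lose a gene. With groups 3 and 4 against groups 1 and 2, the 3 genes called became 2 (Cdkn2a and Myc) at a threshold of 0.01 and at 5 FPKM, where Fat1 was lost.

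Over all genes, the number called varied from 325 to 1708 around 1167 in group 4 against group 1, from 189 to 938 around 729 in group 4 against group 2, from 116 to 545 around 367 in group 3 against group 1, from 86 to 408 around 241 in group 3 against group 2, from 15 to 45 around 38 in group 4 against group 3, and from 13 to 126 around 115 in group 2 against group 1. With groups 3 and 4 against groups 1 and 2 it varied from 1054 to 1977 around 1976, and centring changed its split from 844 higher and 1132 lower to 1065 higher and 742 lower.

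No paired analysis was possible because the tables used here hold 1 level per group and no column carries a replicate number. For the same reason no replicate was left out. Group 3 had the largest errors, and the depth behind low levels, such as those of Cdkn2a in groups 2 and 1, is unknown.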
